A study of Mus musculus with 6 samples.

Results

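Nidogens, fibulins and the heparan sulfate proteoglycans perlecan and agrin were followed in mouse NIH3T3 fibroblasts, as the 9 genes Nid1, Nid2, Fbln1, Fbln2, Fbln5, Efemp1, Efemp2, Hspg2 and Agrn, of 35275 genes in the deposited count table. They were chosen by symbol, with earlier results of the comparison below known, in which Nid2 and Fbln1 had passed the threshold. Their fold changes and adjusted p-values are therefore given as a description. RNA was sequenced from 3 libraries labelled NgBR overexpression and 3 libraries of wild-type NIH3T3 cells, a line of embryonic fibroblasts. NgBR, the Nogo-B receptor encoded by Nus1, is a subunit of the enzyme that makes dolichol. Per the labels' protocols, the NgBR line was transfected with a pIRES plasmid carrying HA-tagged NgBR and kept under G418 selection, and both lines grew in DMEM with antibiotics and 10% calf serum. The wild-type cells are labelled with no treatment and no vector is named for them. Whether the NgBR line was 1 clone or a pool, and whether replicates were separate cultures, is a point that the sources used here leave unstated, so p-values measure only the spread between libraries, which may be technical.

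Basement membranes are sheets of laminin and type IV collagen. Nidogens bind both networks, and perlecan and agrin, large core proteins with heparan sulfate chains, bind laminin and cell surface receptors. Fibulins are secreted proteins of EGF-like repeats with a shared C-terminal module. Some of them join nidogens and fibronectin in the matrix and others take part in the assembly of elastic fibres around microfibrils. Fibroblasts secrete much of the nidogen and fibulin of connective tissue.

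NgBR-labelled libraries had total counts of 7369961 to 10358381, against 29515072 to 35511769 in wild-type libraries, whose mean was 3.50-fold higher. Levels are given in CPM, counts scaled to a common library size, here with TMM factors that allow for composition. Nus1 was at 184, 185 and 165 CPM in the 3 NgBR-labelled libraries and 212, 187 and 233 CPM in the wild-type ones, so that counts at the mouse gene did not rise with the label. Directions are those of the NgBR-labelled libraries. Of 10 fibroblast markers all were above 1 CPM on average in both groups. Summed CPM was at most 2.67, 4.21, 3.44 and 3.26 in any library for the markers of epithelium (7 genes), endothelium (7), leukocytes (6) and skeletal muscle (6). Epcam, Krt18, Cldn4, Cldn5, Myod1 and Myog had 0 counts in all 6 libraries. The 6 neural markers summed to 10.4 to 24.4 CPM in NgBR-labelled and 7.71 to 9.99 CPM in wild-type libraries. In the edgeR fit described below, 4 of them were tested and 1, Syt1, passed the threshold as higher, beside 2.04% of all genes tested. Syt1 had 5, 6 and 6 counts in NgBR-labelled and 0, 2 and 0 in wild-type libraries (log2 fold change 4.55, edgeR adjusted p = 0.0308). It was tested because of its NgBR-labelled level. The part of the neural markers in the results was not tested.

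The promoter windows of Fbln1, which had the largest fold change of the 9 genes, and Fbln2, a fibulin that did not pass the threshold, are shown to set their content of CG, the dinucleotide at which mammalian DNA is methylated, beside the expression values. The RefSeq windows (GRCm38.p6) run from 250 bases before to 50 bases after an annotated start, 5′ to 3′ on the strand of the gene, with every CG in capitals. Fbln1 lies at chr15:85205758-85206057 for the start shown, and Fbln2 at chr6:91212514-91212813, both on the plus strand.
Fbln1: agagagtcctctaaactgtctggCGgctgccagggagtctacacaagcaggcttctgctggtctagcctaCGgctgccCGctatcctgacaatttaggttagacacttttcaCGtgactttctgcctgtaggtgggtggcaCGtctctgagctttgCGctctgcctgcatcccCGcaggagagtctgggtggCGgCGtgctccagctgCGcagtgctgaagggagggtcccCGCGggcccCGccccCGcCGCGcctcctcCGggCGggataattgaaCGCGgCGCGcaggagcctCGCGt
Fbln2: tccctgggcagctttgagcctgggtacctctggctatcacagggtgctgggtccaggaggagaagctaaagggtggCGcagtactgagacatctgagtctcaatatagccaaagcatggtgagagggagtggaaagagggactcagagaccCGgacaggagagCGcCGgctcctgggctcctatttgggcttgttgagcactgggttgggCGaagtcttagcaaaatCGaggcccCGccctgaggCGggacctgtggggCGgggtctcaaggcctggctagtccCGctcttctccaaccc
The Fbln1 window held 24 CG and the Fbln2 window 10, and 20.0% and 43.5% of 32851 windows of the same length held as many or more. The window of the other annotated Fbln1 start overlaps the one shown and held 12 CG. Windows of 8 of the 9 genes were matched, 13 in all, and held 8 to 42 CG. Nid2 was not matched. None of the 13 contained TATAAA on either strand, against 13.6% of all windows with it. These are descriptions of the windows, and methylation was not measured.

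Per kilobase of exonic length the 9 genes ranged over more than 2 orders of magnitude in these cells. Nid1 was the highest, at 261 ± 65.3 CPM per kb in NgBR-labelled and 295 ± 23.5 CPM per kb in wild-type libraries (SD, n = 3 each), percentiles 98.9 and 99.1 among 12589 tested genes with a known length. In NgBR-labelled libraries Fbln2, Efemp1, Hspg2 and Efemp2 followed at 245 ± 68.6, 194 ± 50.4, 113 ± 65.4 and 74.8 ± 11.3 CPM per kb. In wild-type libraries Fbln2, Efemp1, Hspg2 and Efemp2 were at 202 ± 17.6, 180 ± 38.7, 97.8 ± 36.4 and 73.0 ± 13.1 CPM per kb. These 5 genes lay above the 95th percentile in both groups. Fbln5 and Agrn lay lower, at 22.1 ± 4.85 and 10.7 ± 1.89 CPM per kb in NgBR-labelled against 27.9 ± 6.34 and 10.7 ± 0.553 CPM per kb in wild-type libraries. Nid2 and Fbln1 were the lowest in both groups. Nid2 was at 1.14 ± 0.186 CPM per kb in NgBR-labelled and 6.43 ± 0.836 CPM per kb in wild-type libraries, percentiles 18.1 and 51.3. Fbln1 was at 0.0652 ± 0.0656 CPM per kb in NgBR-labelled and 0.955 ± 0.196 CPM per kb in wild-type libraries, percentiles 0.874 and 16.2.

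The order of mean levels was the same in both groups. In NgBR-labelled libraries the library ranges of Nid1 and Fbln2, Fbln2 and Efemp1, Efemp1 and Hspg2, and Hspg2 and Efemp2 overlapped. Within the same library, Nid1 was above Fbln2 and Efemp1 above Hspg2 in all 3 of them, while the order of the other overlapping pairs differed between libraries. In wild-type libraries Fbln2 overlapped Efemp1 and Hspg2 overlapped Efemp2, each pair with an order that differed between libraries, and the other neighbours were apart. From Efemp2 downwards, each gene was apart from the next in both groups. With the length of the longest transcript in place of all exons, Fbln2 passed Nid1 in NgBR-labelled libraries (327 against 297 CPM per kb) and Efemp2 passed Hspg2 in wild type (105 against 98.7).

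**Figure D1:**
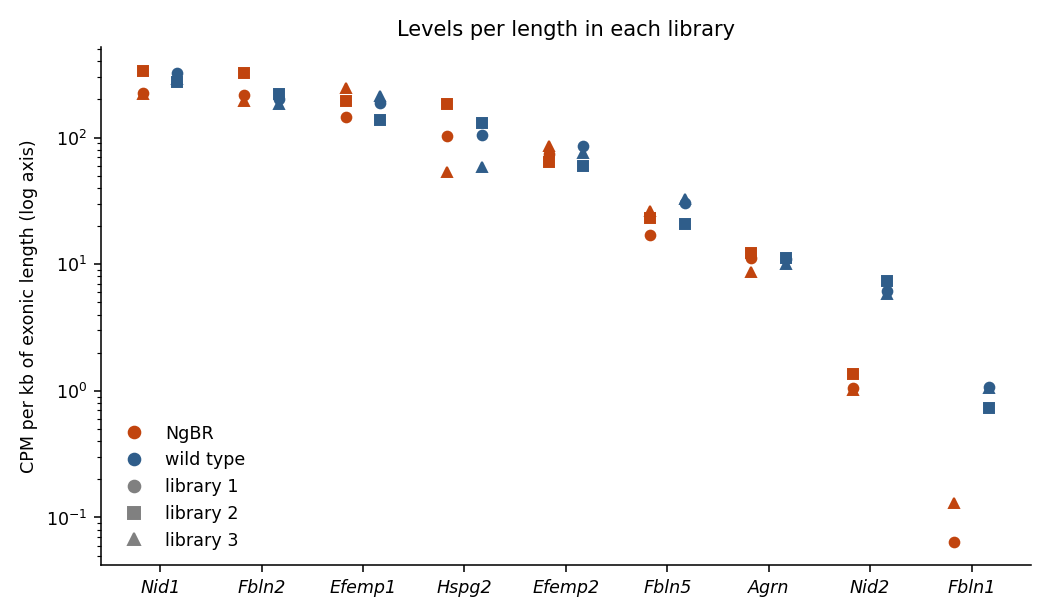
Levels of the 9 genes in CPM per kb of exonic length on a log axis, with 1 point per library and NgBR-labelled libraries to the left of wild type. Nid2 and Fbln1 are the 2 genes whose groups do not overlap, beside 18.6% of all 12651 genes tested. Fbln1 in NgBR-labelled library 2, with 0 counts, cannot be drawn.

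Of the 9 genes, all tested, 2 fell and 0 rose in the NgBR-labelled libraries, by edgeR's quasi-likelihood test at a Benjamini-Hochberg adjusted p under 0.05 over all genes. The background was 1.35% of 12651 tested genes lower, 2.04% higher and 3.39% in either direction. DESeq2, and edgeR at an unadjusted p under 0.05, likewise gave 2 lower and 0 higher. Over all genes DESeq2 called 1.65% lower and 2.82% higher of the 15906 to which it gave an adjusted p. Of the 12651 genes tested by edgeR, DESeq2 called 249 lower and 404 higher. Its counts in the lists below are among genes tested by edgeR, while its shares are of the 15906. At an unadjusted p under 0.05 in edgeR, 5.11% were lower and 6.30% higher. The median log2 fold change of the 9 genes was 0.00, beside -0.01 over all genes tested. Their choice rests on this contrast, so nothing is read from the counts.

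The nidogen pair, Nid1 and Nid2, encodes related proteins of the same layout that both bind laminin and type IV collagen. Nid2 (ENSMUSG00000021806, mm10 chromosome 14, 19751265 to 19811787, plus strand, protein-coding) had 5.47, 7.02 and 5.26 CPM in NgBR-labelled libraries 1 to 3, from 39, 71 and 55 counts. In wild-type libraries 1 to 3 it had 31.8, 38.2 and 29.9 CPM, from 1110, 1128 and 994 counts. Every NgBR-labelled library was below every wild-type library. Nid2 fell to 5.92 ± 0.965 CPM in NgBR-labelled libraries, against 33.3 ± 4.32 CPM in wild type (SD, n = 3 each), 5.63-fold lower by the means. The log2 fold change was -2.49 (SE 0.25, 95% interval -3.04 to -1.93, edgeR adjusted p = 0.000899). In RNA from whole cultures, fewer cells that express a gene and less of its RNA per cell cannot be told apart. With all libraries thinned to 7369961 counts, the Nid2 counts were 39, 50 and 41 in NgBR-labelled and 208, 276 and 244 in wild-type libraries.

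Nid1 (ENSMUSG00000005397, chromosome 13, 13437551 to 13512269, plus strand) did not pass the threshold. It had 1568, 2333 and 1528 CPM in NgBR-labelled libraries 1 to 3 and 2225, 1902 and 2026 CPM in wild-type libraries 1 to 3. NgBR-labelled library 2 was above all wild-type libraries and the other two were below them. The log2 fold change was -0.18 (95% interval -0.88 to 0.52, edgeR adjusted p = 0.921), an interval that holds both a decrease and an increase of Nid1.

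Nid2 transcripts were a small part of the nidogen pool per length. They made up 0.467%, 0.403% and 0.461% of the summed CPM per kb of both nidogens in NgBR-labelled libraries 1 to 3, and 1.88%, 2.62% and 1.94% in wild-type libraries 1 to 3. The ranges of the share did not overlap. The share uses the contrast by which the genes were chosen and is given with no test. Exons of Nid2 share 437 bases with 2700060E02Rik, a gene on the opposite strand that was at 72, 52.3 and 76.2 CPM in NgBR-labelled and 87.5, 63.4 and 76.8 CPM in wild-type libraries (log2 fold change -0.18, edgeR adjusted p = 0.879). The sources used here do not say whether counting used the strand, and without it the reads of the shared bases cannot be told apart.

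**Figure D2:**
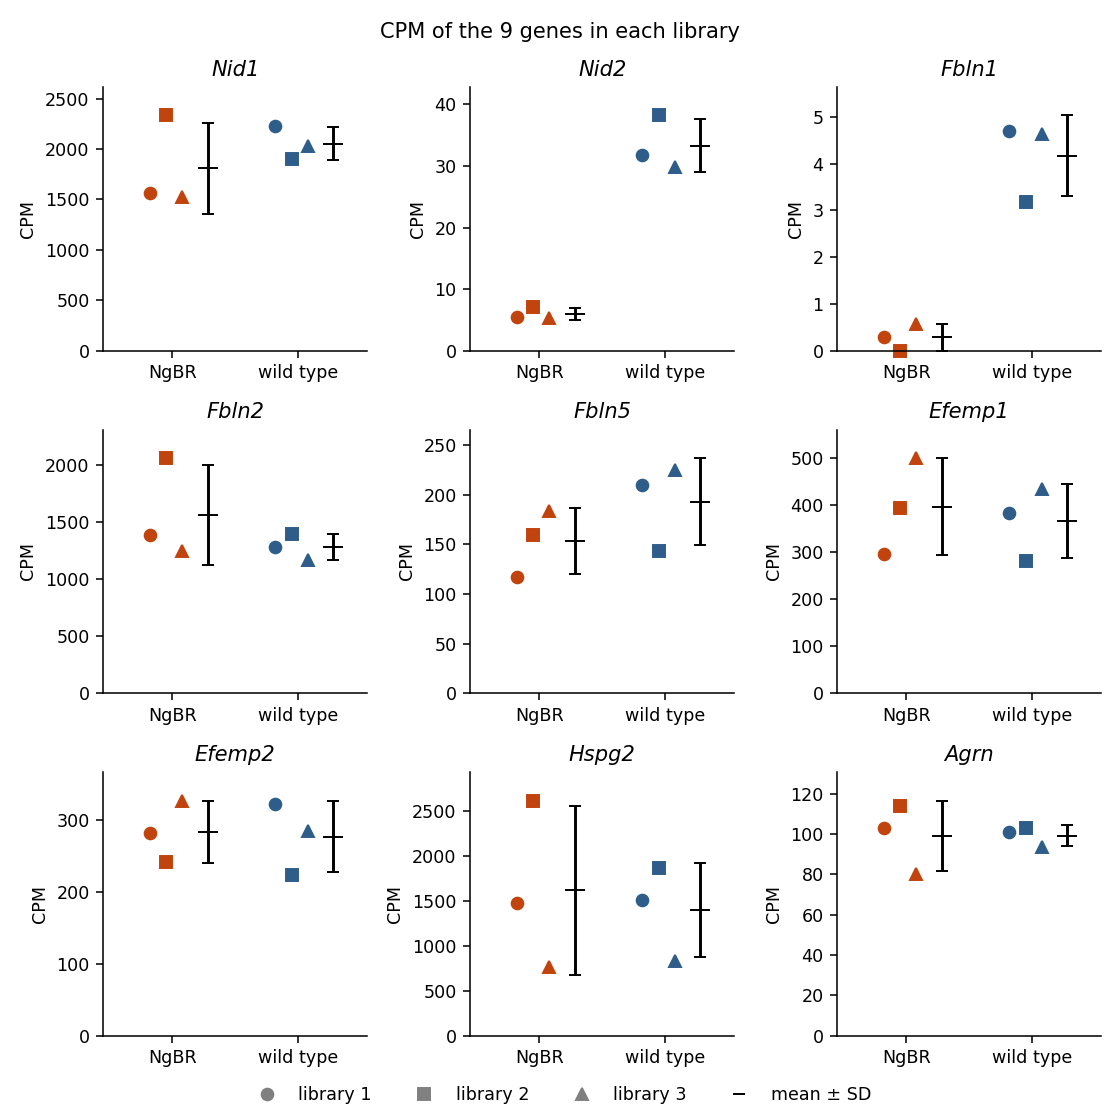
CPM of each of the 9 genes by library, with the mean and SD beside the points, NgBR-labelled libraries to the left and wild type to the right of each panel. For Nid2 and Fbln1 the groups are apart, while for the other 7 genes they overlap. Over all 12651 genes tested, the groups were apart for 18.6%, and for 9.37% with the NgBR-labelled libraries lower.

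Among the fibulins, Fbln1, which encodes a fibulin of basement membranes and of fibronectin and elastin-rich matrix, was the rarest. Fbln1 (ENSMUSG00000006369, chromosome 15, 85205949 to 85286535, plus strand) had 2, 0 and 6 counts in NgBR-labelled libraries 1 to 3, or 0.281, 0 and 0.573 CPM. The 0 counts in library 2 allow up to 0.297 CPM, counting error only. In wild-type libraries 1 to 3 it had 164, 94 and 154 counts, or 4.70, 3.18 and 4.64 CPM. All 3 NgBR-labelled libraries lay below all wild-type libraries. Fbln1 fell to 0.285 ± 0.287 CPM in NgBR-labelled libraries, against 4.17 ± 0.858 CPM in wild type (SD, n = 3 each), 14.7-fold lower by the means. The log2 fold change was -3.83 (SE 0.66, 95% interval -5.33 to -2.33, edgeR adjusted p = 0.014).

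The size of the Fbln1 decrease rests on few reads. Without NgBR-labelled library 2 the log2 fold change was -3.21, without NgBR-labelled library 3 it was -5.07, and without NgBR-labelled library 1 the call was lost (edgeR adjusted p = 0.0892). Only 1 of 3 NgBR-labelled libraries reached the 0.502 CPM that the filter on low counts asks for, against all 3 wild-type libraries. Fbln1 was therefore tested because of its wild-type level, and passing the filter through 1 group favours genes that are higher in that group. Thinned to equal depth it had 2, 0 and 5 counts in NgBR-labelled and 50, 22 and 44 counts in wild-type libraries.

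Fbln2, a fibulin that binds nidogens, was the most abundant fibulin and did not pass the threshold. It had 1383, 2062 and 1246 CPM in NgBR-labelled libraries 1 to 3 and 1284, 1396 and 1172 CPM in wild-type libraries 1 to 3. The groups overlapped, with NgBR-labelled library 2 the highest of all 6. The log2 fold change was 0.28 (95% interval -0.41 to 0.98, edgeR adjusted p = 0.842). Fbln2 made up 45.6 ± 9.37% of the summed CPM per kb of the 5 fibulins in NgBR-labelled and 42.1 ± 7.13% in wild-type libraries, and Fbln1 0.0126 ± 0.0119% in NgBR-labelled and 0.196 ± 0.0260% in wild-type libraries (SD, n = 3 each). These shares use the same contrast and are likewise a description.

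The fibulins of elastic fibres and Efemp1 had overlapping groups. Fbln5, fibulin-5, which carries an integrin-binding RGD motif and is needed for elastic fibre assembly in mice, had 117, 159 and 183 CPM in NgBR-labelled libraries 1 to 3 and 210, 143 and 225 CPM in wild-type libraries 1 to 3. Wild-type library 2 lay inside the range of the NgBR-labelled libraries and the other two above it (log2 fold change -0.33, 95% interval -0.94 to 0.27, edgeR adjusted p = 0.762). Efemp2, fibulin-4, which binds lysyl oxidase, had 282, 242 and 327 CPM in NgBR-labelled and 322, 224 and 284 CPM in wild-type libraries (log2 fold change 0.04, 95% interval -0.52 to 0.59). Its exons share 173 bases with Mus81 on the opposite strand, at 23.0 CPM in NgBR-labelled and 22.8 CPM in wild-type libraries on average. Efemp1, fibulin-3, a matrix protein known from an inherited retinal dystrophy in humans, had 295, 393 and 500 CPM in NgBR-labelled and 383, 280 and 435 CPM in wild-type libraries (log2 fold change 0.11, 95% interval -0.54 to 0.77). For Efemp1 and Efemp2 the sign of the change turned with the libraries used. Efemp1 was at -0.09 without NgBR-labelled library 3 and -0.04 without wild-type library 2, and Efemp2 at -0.08 and -0.10.

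The proteoglycan genes had overlapping groups as well. Hspg2 (ENSMUSG00000028763, chromosome 4, 137468769 to 137570630, plus strand), the gene of perlecan, had 1469, 2612 and 758 CPM in NgBR-labelled libraries 1 to 3 and 1502, 1862 and 835 CPM in wild-type libraries 1 to 3. The highest library of each group was library 2 and the lowest library 3, a 3.44-fold span in NgBR-labelled and 2.23-fold in wild-type libraries. The log2 fold change was 0.20 (95% interval -0.88 to 1.29, edgeR adjusted p = 0.946), the widest interval among the 7 genes not called, with values of -0.34 without NgBR-labelled library 2 and -0.06 without wild-type library 3. Agrn (ENSMUSG00000041936, chromosome 4, 156165290 to 156197488, minus strand), the gene of agrin, which binds dystroglycan and clusters acetylcholine receptors at the neuromuscular junction, had 103, 114 and 80.1 CPM in NgBR-labelled libraries 1 to 3 and 101, 103 and 93.4 CPM in wild-type libraries 1 to 3. Agrn averaged 99.2 ± 17.5 CPM in NgBR-labelled and 99.3 ± 5.14 CPM in wild-type libraries (SD, n = 3 each), with a 95% interval of the log2 fold change of -0.49 to 0.48, the narrowest of the 9.

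**Figure D3:**
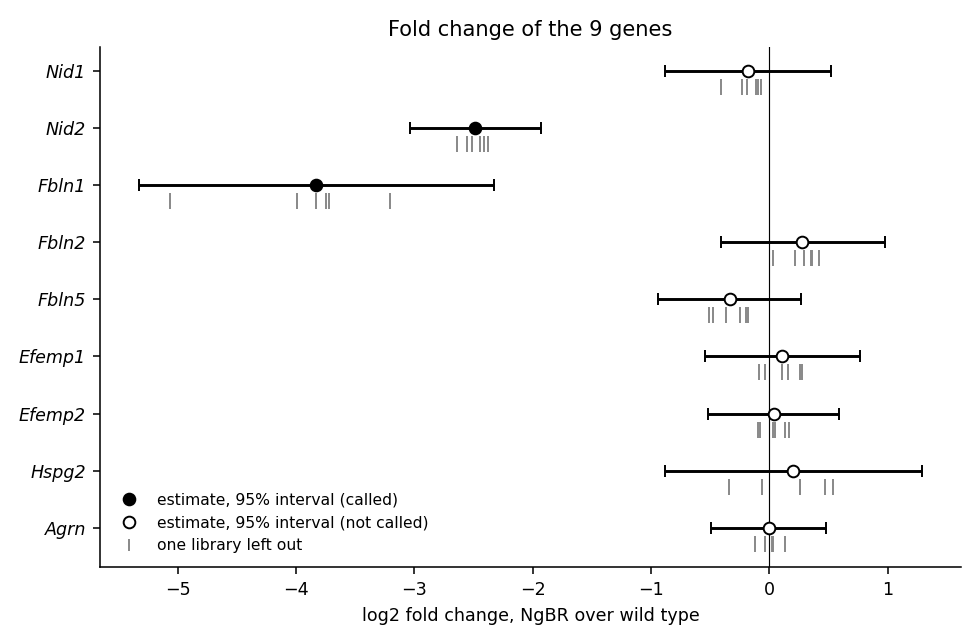
Log2 fold change of each gene, NgBR-labelled over wild type, with its 95% interval from the edgeR fit. Filled points passed the threshold and grey ticks are the fits with 1 library left out, which for Nid2 stay between -2.64 and -2.38 and for Fbln1 between -5.07 and -3.21.

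Deviations of single libraries were related to exonic length over all genes, to a different degree and in a different direction between libraries. Each library's log2 CPM was set against the 6-library mean of the same gene, and over 12589 genes this difference had a Spearman rho with exonic length of 0.068, 0.347 and -0.467 in NgBR-labelled libraries 1 to 3 and -0.226, 0.242 and -0.299 in wild-type libraries 1 to 3. These correlations are across genes, which are not independent replicates. Hspg2, with 14.3 kb of exons the longest of the 9, deviated from its own group's mean log2 CPM by 0.04, 0.87 and -0.91 in NgBR-labelled and 0.18, 0.49 and -0.67 in wild-type libraries. Efemp1, with 2.04 kb the shortest, deviated by -0.39, 0.02 and 0.37 in NgBR-labelled and 0.09, -0.36 and 0.27 in wild-type libraries. Efemp1 thus ran against Hspg2 in libraries 3 of both groups. Fbln5, of 6.91 kb, deviated by -0.37, 0.08 and 0.28 in NgBR-labelled and 0.15, -0.40 and 0.25 in wild-type libraries. Nid1, of 6.94 kb, deviated by -0.18, 0.39 and -0.22 in NgBR-labelled and 0.12, -0.11 and -0.01 in wild-type libraries. The part of length in the spread of these genes was not tested.

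Offsets for the exonic length and GC content of each gene in each library left the calls as they were. With them, the log2 fold change was -2.42 for Nid2 (edgeR adjusted p = 0.000668), -3.75 for Fbln1 (edgeR adjusted p = 0.0107) and 0.15 for Hspg2 (edgeR adjusted p = 0.896). Over the 6 libraries, Pearson's r of log2 CPM was 0.926 between Hspg2 and Agrn, 0.834 between Hspg2 and Fbln2, 0.743 between Fbln5 and Efemp1 and 0.86 between Nid2 and Fbln1. Other pairs ran against each other, with r of -0.783 between Fbln1 and Fbln2, -0.693 between Hspg2 and Efemp2 and -0.655 between Agrn and Efemp2. These are descriptions over points that share their libraries and, for Nid2 and Fbln1, the difference between the groups.

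**Figure D4:**
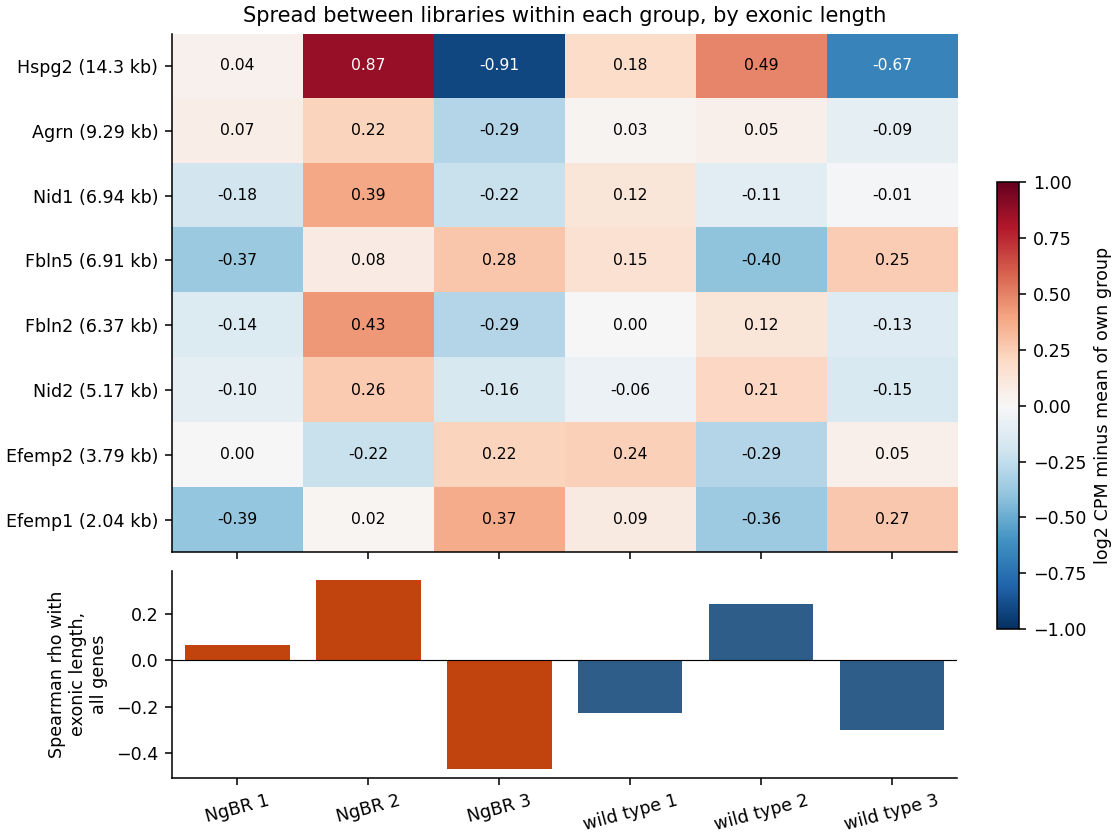
Upper panel, log2 CPM of 8 genes minus the mean of their own group, by library, from the longest gene to the shortest, leaving out Fbln1 because of its library with 0 counts. Lower panel, Spearman's rho between exonic length and each library's deviation over all genes, which is above 0 in both libraries numbered 2 and below 0 in both numbered 3, as the values of Hspg2 are.

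The genes with the pattern most like Nid2 over the 6 libraries were Gpc6, which encodes a glypican, a heparan sulfate proteoglycan anchored in the cell membrane, Sod2, mitochondrial superoxide dismutase, and Itga11, a collagen-binding integrin subunit. Each had r = 0.996 with Nid2 among 10032 genes. Gpc6 was at 6.03, 6.63 and 5.83 CPM in NgBR-labelled and 80.04, 105.94 and 62.73 CPM in wild-type libraries, and Itga11 at 0.42, 0.59 and 0.29 CPM in NgBR-labelled and 8.93, 18.58 and 8.28 CPM in wild-type libraries. Their log2 fold changes were -3.75 and -4.76, and that of Sod2 was -1.50. These genes were picked for a pattern that holds the group difference, so the values are a description with no test. Most like Fbln1 were Tagln, an actin-binding protein of smooth muscle (r = 0.992), Fam73b (r = 0.991) and Nipsnap1 (r = 0.988). Their log2 fold changes were -1.36, -0.47 and -0.59 (edgeR adjusted p = 0.0214, 0.46 and 0.306). Fam73b and Nipsnap1 were thus not called, and Tagln kept its call under 15 of 19 alternatives. The values are likewise a description, and r rests on the low counts of Fbln1.

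The other genes of basement membranes were read next, as the partners to which nidogens, perlecan and agrin bind. Of 19 tested of 26 listed, 2 rose and 2 fell, with a median log2 fold change of -0.01. DESeq2 also called 2 higher and 2 lower, and 3 were higher and 2 lower at an unadjusted p under 0.05 in edgeR. Over all genes, 2.04% were higher and 1.35% lower by edgeR, 2.82% and 1.65% by DESeq2, and 6.30% and 5.11% at the unadjusted p. The abundant laminin and type IV collagen chains did not pass the threshold. Lamc1, the laminin chain that binds nidogen, was at 595 ± 268 CPM in NgBR-labelled and 887 ± 435 CPM in wild-type libraries (log2 fold change -0.58, edgeR adjusted p = 0.74). Col4a1 and Col4a2 were at 310 ± 68.1 and 250 ± 104 CPM in NgBR-labelled and 315 ± 46.2 and 283 ± 63.3 CPM in wild-type libraries (SD, n = 3 each). Smoc2, a calcium-binding matrix protein of the SPARC family, fell to 0.733 ± 0.449 CPM in NgBR-labelled libraries, against 5.05 ± 0.602 CPM in wild type (log2 fold change -2.75, edgeR adjusted p = 0.00951). It had 4, 4 and 13 counts in NgBR-labelled libraries 1 to 3, or 0.561, 0.396 and 1.24 CPM. NgBR-labelled library 2 was below the 0.502 CPM of the filter, so Smoc2 was tested because of its wild-type level. Npnt, nephronectin, an integrin ligand of basement membranes, fell to 3.07 ± 1.18 CPM in NgBR-labelled libraries, against 18.8 ± 8.70 CPM in wild type (log2 fold change -2.62, edgeR adjusted p = 0.0154). Tinagl1, a basement membrane protein related to tubulointerstitial nephritis antigen, rose to 273 ± 62.9 CPM in NgBR-labelled libraries, against 113 ± 18.3 CPM in wild type (log2 fold change 1.28, edgeR adjusted p = 0.0285). Lamb3, a laminin chain of epithelia, named after its values were seen, rose at low counts, with 8, 7 and 7 counts in NgBR-labelled and 2, 5 and 3 in wild-type libraries (log2 fold change 2.90, edgeR adjusted p = 0.037). Wild-type Lamb3, at 0.0573, 0.169 and 0.0903 CPM, was below the 0.502 CPM of the filter. Lamb3 was therefore tested because of its NgBR-labelled level.

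These calls were less steady than that of Nid2. Smoc2 lost its call without NgBR-labelled library 1 (edgeR adjusted p = 0.0637) and was at -3.42 without NgBR-labelled library 3. Npnt lost its call without NgBR-labelled libraries 1 or 3 (edgeR adjusted p = 0.0956 and 0.0716) and under limma-voom (adjusted p = 0.0524). Tinagl1 lost it whichever of the 6 libraries was left out (edgeR adjusted p between 0.0531 and 0.136), without both libraries numbered 2 (0.0523) and against a 1.5-fold change (0.119). Lamb3 lost it without NgBR-labelled libraries 1, 2 or 3 (edgeR adjusted p = 0.164, 0.0839 and 0.104) and fell below the filter without wild-type libraries 1, 2 or 3. Lamb3 also lost it with no filter, against a 1.5-fold change, and with length and GC offsets and the replicate block (edgeR adjusted p = 0.0538, 0.0642 and 0.0634). Thinning to equal depth, and a minimum of 1 CPM in 3 libraries, each left Lamb3 below the filter and untested.

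Elastic fibre and microfibril genes, with which several fibulins work, held 1 gene that rose and 0 that fell among 14 tested of 21 listed, with a median log2 fold change of 0.19. The shares of all genes higher and lower were 2.04% and 1.35% by edgeR, 2.82% and 1.65% by DESeq2, and 6.30% and 5.11% at an unadjusted p under 0.05. In this list DESeq2 called 1 higher and 0 lower, and 3 were higher and 0 lower at an unadjusted p under 0.05 in edgeR. That gene, Loxl3, a lysyl oxidase, rose to 155 ± 22.1 CPM in NgBR-labelled libraries, against 71.0 ± 15.8 CPM in wild type (log2 fold change 1.13, edgeR adjusted p = 0.0407), and lost its call whichever library was left out (edgeR adjusted p between 0.0592 and 0.178), without both libraries numbered 2 (0.0514) and against a 1.5-fold change (0.207). Lox, the lysyl oxidase that binds fibulin-4, and the fibrillin gene Fbn1 were at 3115 ± 2146 and 285 ± 149 CPM in NgBR-labelled and 2771 ± 266 and 247 ± 142 CPM in wild-type libraries (SD, n = 3 each), neither past the threshold. Eln, the gene of elastin, averaged 0 CPM in NgBR-labelled and 0.0387 CPM in wild-type libraries and was not tested. Of the 3 other fibulin-related genes, Fbln7, Hmcn1 and Hmcn2, only Hmcn2 was tested, at 3.58 ± 1.22 CPM in NgBR-labelled and 1.34 ± 0.469 CPM in wild-type libraries (log2 fold change 1.41, edgeR adjusted p = 0.166).

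The enzymes that build and modify heparan sulfate, the chains carried by perlecan and agrin, held 1 gene that rose and 0 that fell among 20 tested of 32 listed, with a median log2 fold change of -0.01. By DESeq2 2 of the 20 were higher and 0 lower, and at an unadjusted p under 0.05 in edgeR 2 were higher and 2 lower. Over all genes, 2.04% were higher and 1.35% lower by edgeR, 2.82% and 1.65% by DESeq2, and 6.30% and 5.11% at the unadjusted p. Ndst3, a sulfotransferase of the chain, rose to 2.58 ± 0.831 CPM in NgBR-labelled libraries, against 0.401 ± 0.216 CPM in wild type (log2 fold change 2.69, edgeR adjusted p = 0.0211). Wild-type libraries 1 to 3 were at 0.229, 0.643 and 0.331 CPM, against the 0.502 CPM of the filter, so Ndst3 was tested because of its NgBR-labelled level. It was no longer called when NgBR-labelled library 1 or 3, or wild-type library 1 or 3, was left out (edgeR adjusted p = 0.0917, 0.105, 0.0966 and 0.0794), or when all libraries were thinned to equal depth (edgeR adjusted p = 0.0558). The more abundant Ndst1 was at 181 ± 62.9 CPM in NgBR-labelled and 183 ± 36.1 CPM in wild-type libraries. Ext1 and Ext2, the polymerase pair, were at 338 ± 107 and 154 ± 5.89 CPM in NgBR-labelled and 220 ± 9.53 and 156 ± 21.2 CPM in wild-type libraries (SD, n = 3 each), and were not called.

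Of 11 tested receptors of 13 listed, 0 were called by edgeR, with a median log2 fold change of 0.43. At an unadjusted p under 0.05 there were 4 higher and 0 lower, beside 6.30% higher and 5.11% lower over all genes. DESeq2 called 1 higher and 0 lower, beside 2.82% higher and 1.65% lower over all genes. That gene, Itgb3, an integrin subunit named after its values were seen, was at 19.2 ± 10.6 CPM in NgBR-labelled and 7.24 ± 0.579 CPM in wild-type libraries (log2 fold change 1.41, edgeR adjusted p = 0.0883). Dag1, dystroglycan, which binds agrin and perlecan through its sugar chains, was at 288, 551 and 268 CPM in NgBR-labelled and 241, 163 and 220 CPM in wild-type libraries, with groups that did not overlap (log2 fold change 0.83, edgeR adjusted p = 0.354). The CPM ranges did not overlap for 9.21% of all tested genes with the NgBR-labelled libraries higher and 9.37% with them lower. Itgb1, the integrin subunit shared by most matrix receptors, was at 750 ± 47.1 CPM in NgBR-labelled and 776 ± 71.6 CPM in wild-type libraries (log2 fold change -0.05, and 0.03 without wild-type library 2). Of 11 tested proteases of 17 listed that are known to cut nidogens, fibulins, perlecan or agrin, 0 were called by edgeR. Their median log2 fold change was -0.43, with 9 negative and 2 positive values. The 11 receptors had 3 negative and 8 positive values, and all genes tested 6488 negative and 6163 positive. Both by DESeq2 and at an unadjusted p under 0.05, 2 proteases were lower and 0 higher. These are Adamts1 and Mmp9, named after their values were seen. Adamts1, which cuts nidogens, was at 59.8 ± 23.8 CPM in NgBR-labelled and 140 ± 56.5 CPM in wild-type libraries (log2 fold change -1.22, edgeR adjusted p = 0.143), and the gelatinase Mmp9 at 5.90 ± 0.409 CPM in NgBR-labelled and 12.1 ± 3.42 CPM in wild-type libraries (log2 fold change -1.03, edgeR adjusted p = 0.11). The more abundant Mmp2 and the cathepsin gene Ctsl had log2 fold changes of -0.18 and 0.13, and that of Ctsl was -0.26 without NgBR-labelled library 3.

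**Figure D5:**
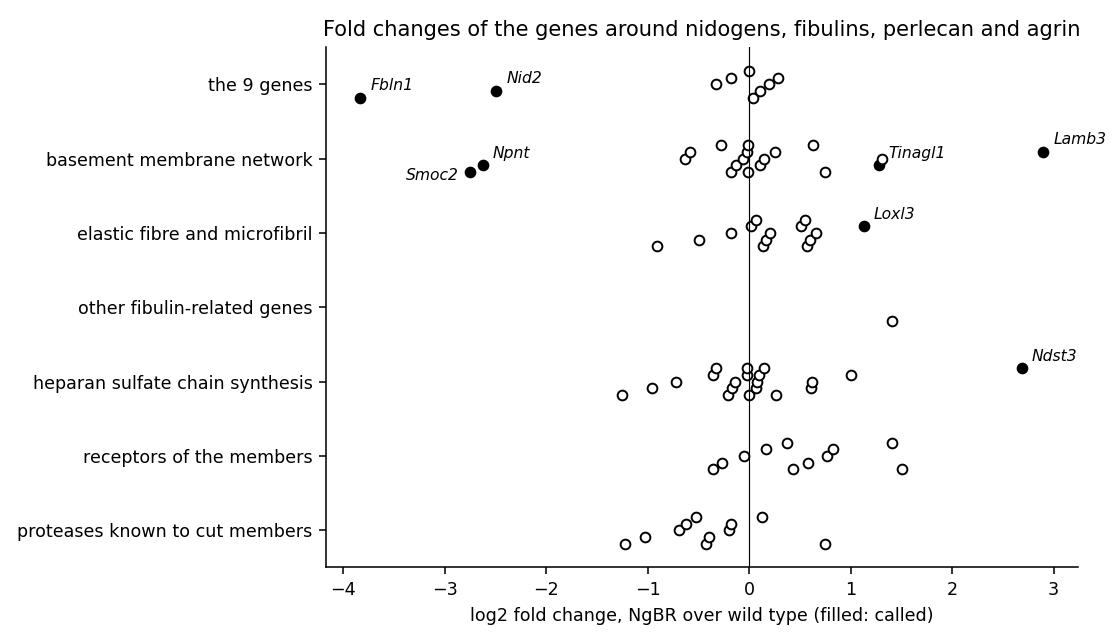
Log2 fold changes, NgBR-labelled over wild type, of the 9 genes and of the tested genes of 6 related lists, 1 point per gene, filled and named where called. Nid2 and Fbln1 lie with Smoc2 and Npnt at the lower end, and most genes of the 5 lists with more than 1 tested gene lie within 1 log2 unit of 0.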

How the data were processed

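RNA was measured in 6 libraries of NIH3T3 cells, 3 per group. The authors deposited 1 table of whole-number, unnormalized counts for each gene. Their processing notes name genome build mm10 and the programs HISAT2 2.0.5 and featureCounts 1.5.0-p3, beside DESeq2, per the submitters' processing notes. No annotation release, strand setting or filter is named there. SMARTer libraries were made from 1.5 micrograms of total RNA, per the labels' protocols.

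All genes kept by filterByExpr were tested with edgeR 4.0.16 in R 4.3.3 (quasi-likelihood F test, TMM, no covariate), and the 9 genes were read from that fit. A gene was called at an adjusted p under 0.05. Exonic lengths and positions came from GENCODE M21 (mm10), where 97.8% of the gene identifiers were found. Low counts limit Fbln1. The limit given for a count of 0 covers counting error only, while the 95% intervals come from the edgeR fit and include the spread between libraries.

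The 9 genes and all lists were chosen with earlier results of these data known. Genes named from a list are its up to 3 called genes with a mean of at least 1 CPM and the largest change, or otherwise its 2 most abundant genes. For each called gene of the 9, the 3 genes of highest r with a mean of at least 5 CPM were named. Other genes were named after their values were seen. Alternatives were DESeq2 1.42.0, limma-voom 3.58.1, other scaling factors and filters, a test against a 1.5-fold change, a replicate block, each library and both libraries numbered 2 left out, thinning, and length and GC offsets.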

Additional observations from a re-analysis of the deposited data

How the results depend on the processing

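Nid2 stayed called and lower under all 19 alternatives, and Fbln1 under all but the fit without NgBR-labelled library 1, where 1 of the 9 genes was called lower instead of 2. With each library left out in turn the number called lower thus lay between 1 and 2. None of the 9 was called higher under any alternative. Among uncalled genes, signs turned with small values. With 1 library left out, the log2 fold change lay between -0.09 and 0.28 for Efemp1, -0.10 and 0.17 for Efemp2, -0.34 and 0.54 for Hspg2, -0.12 and 0.13 for Agrn, -0.10 and 0.03 for Itgb1 and -0.26 and 0.31 for Ctsl. Without both libraries numbered 2, Efemp1 was at -0.04, Hspg2 at -0.07 and Itgb1 at 0.07. Efemp2 was at -0.01 without a filter. Agrn was at 0.01 with RLE factors, upper-quartile factors or the minimum of 1 CPM in 3 libraries, and at 0.00 with DESeq2 and thinning. With length and GC offsets, with or without the block, Agrn was at 0.03 and Itgb1 at 0.02. The cause was not tested. Levels per kb moved with the longest transcript for Nid1 (337 in wild type), Fbln2 (327 and 268), Efemp2 (108 and 105, NgBR-labelled and wild type) and Agrn (11.5 in wild type).

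Over all genes, 429 were called, 712 with DESeq2, 688 without a filter and 225 to 374 with 1 library left out. Without a filter the median log2 fold change of all genes was -0.11. Among the genes of the 6 related lists, 2 were called lower, and 5 with DESeq2, of which 4 were among genes tested by edgeR. The number called lower was 1 with limma-voom, 4 without a filter, 6 without both libraries numbered 2 and 0 to 3 with 1 library left out. Genes of these lists called higher numbered 4, 1 against a 1.5-fold change, 2 after thinning and 0 to 1 with 1 library left out. Whether the replicate numbers pair the samples was not tested, and the main fit did not pair them. Same-numbered deviations were correlated at 0.015, 0.341 and 0.434 over genes, and differently numbered ones at between -0.399 and 0.189. With the number as a replicate block 719 genes were called, with 8 of the related lists higher and the same 2 of the 9 genes lower, and not every library correlated best with its own number. Depth limits Fbln1, for which 3 counts equal 0.287 to 0.421 CPM in NgBR-labelled libraries.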
